A study of Homo sapiens with 2 samples.

Results

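Peaks at the 3′ ends of protein-coding genes were taken from 2 NUDT21 CUT&Tag peak lists of J.gamma1, a human T-ALL line (T-cell acute lymphoblastic leukemia) of the Jurkat family. A gene-end peak was a peak on chromosomes 1 to 22, X or Y with no edge within 3000 bp of any GENCODE 44 transcript start and with its summit within 1000 bp of the nearest annotated 3′ end of a protein-coding gene. Replicate 1 held 1486 such peaks among 45562 peaks outside promoters and 97162 deposited peaks, and replicate 2 held 1126 among 30462 and 68532. They were 3.26% of the peaks outside promoters in replicate 1 (95% Wilson interval 3.10 to 3.43) and 3.70% in replicate 2 (3.49 to 3.91), a mean of 3.48% ± 0.308 (SD, n = 2). Merging overlapping peaks gave 1878 regions in either list, of which 701 held a gene-end peak of each replicate.

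Both libraries were made from J.gamma1 cells, for which the labels name no treatment, with the same antibody against NUDT21 (Proteintech), so the series has 1 group and no contrast between groups. No IgG control and no input library were analysed here. The study's methods call the 2 replicates biological and independent, and all intervals below cover counting error only.

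NUDT21, also called CFIm25, is the small subunit of cleavage factor Im, which binds UGUA in nascent RNA upstream of poly(A) sites and helps to choose where a transcript is cut. The cut itself is directed by an AAUAAA-type hexamer a short way upstream of the site. CUT&Tag reads where an antibody tethers the Tn5 transposase to DNA, so a peak marks chromatin near the protein, not the RNA site itself. The peaks below are therefore described against the DNA version of these signals, AATAAA or ATTAAA and TGTA, on the strand of the gene.

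The 12 shared regions with the highest fold in both lists were at HSPA5, RUSC1, HPD, DESI1, SLC27A4, UBE2S, PRKRIP1, TRA2B, JPT2, GCDH, SRSF6 and ARL3. The last 30 bases before the annotated end of each gene are shown because the cleavage signal is expected there, with AATAAA or ATTAAA in capitals (hg38, 5′ to 3′ on the gene strand).
HSPA5 (chr9:125234853-125234882, minus): gttactgaatATTAAAaagatagacttcaa
RUSC1 (chr1:155331085-155331114, plus): cctttgtcccAATAAAgtatgggagttgaa
HPD (chr12:121839527-121839556, minus): ccctcccgATTAAAgcgtgccccggtccaa
DESI1 (chr22:41598028-41598057, minus): aatgcAATAAActcatttctgcctgctgca
SLC27A4 (chr9:128361441-128361470, plus): ttaacagtgtgggcttgaaagtccaaacca
UBE2S (chr19:55399745-55399774, minus): agtgcatAATAAAaataatatttgccctta
PRKRIP1 (chr7:102426647-102426676, plus): gagcacatgccctggctgtacattttgaaa
TRA2B (chr3:185914558-185914587, minus): tataatgtaaagacttaaaagtgacaagaa
JPT2 (chr16:1702251-1702280, plus): ttgagaaagaaaaccaacatgcattaactg
GCDH (chr19:12914178-12914207, plus): tgccagagaagccaccacctaccggaaacc
SRSF6 (chr20:43466017-43466046, plus): atattgtgaaaagtaaatactattatcaaa
ARL3 (chr10:102673731-102673760, minus): atccgacaAATAAAatttagctggaacgaa

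The hexamer stood in 6 of these 12 ends, and in 64.8% of all 13366 eligible ends. An end was called eligible where at least part of its 2000 bp window lay over 3000 bp from every transcript start, so that it could hold a gene-end peak. In 4 of the 12 regions the replicate 1 summit lay beyond the gene, in no annotated gene. The 81 bases around 3 of those summits are shown because they are the sequence under the signal. With 1 of the 4 not shown, no share of a motif is drawn from them.
DESI1, 772 bp beyond the end (chr22:41597216-41597296, minus): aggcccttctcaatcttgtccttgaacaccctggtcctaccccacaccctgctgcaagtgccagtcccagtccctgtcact
SLC27A4, 663 bp beyond the end (chr9:128362093-128362173, plus): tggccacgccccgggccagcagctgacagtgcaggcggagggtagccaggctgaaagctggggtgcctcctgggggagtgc
JPT2, 195 bp beyond the end (chr16:1702435-1702515, plus): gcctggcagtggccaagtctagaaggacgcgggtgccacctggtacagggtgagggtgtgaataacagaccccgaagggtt

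Over all gene-end peaks, 15.1% of the 81-base summit windows in replicate 1 (13.4 to 17.1) and 16.4% in replicate 2 (14.4 to 18.7) held TGTA on the gene strand. The last 81 bases before eligible ends held it in 47.4%. Base composition also differed between the 2 places, though GC was taken over other widths than 81 bases. The median GC content was 59.2% in the 201 bases around the summits of gene-end peaks in each replicate. In the last 30 bases before eligible ends it was 26.7%. The part of GC in the lower share of TGTA was not tested.

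Summits lay on both sides of the gene end in nearly equal numbers. In replicate 1, 782 of 1486 summits (52.6%, 50.1 to 55.2) were beyond the end in the direction of transcription, and in replicate 2, 584 of 1126 (51.9%, 48.9 to 54.8). The sequence in which a gene-end peak could fall was divided almost the same way, with 10.9 Mb before and 11.3 Mb beyond the end, so that 50.9% lay beyond. Per eligible Mb there were 64.7 summits before and 69.4 beyond in replicate 1, and 49.8 and 51.8 in replicate 2. The gene lay on the plus strand for 52.2% of the peaks in replicate 1 (49.7 to 54.8) and for 50.4% in replicate 2 (47.5 to 53.4).

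Summits were sparse near the end itself. Within 200 bp of the end there were 33.0 summits per eligible Mb in replicate 1 (exact Poisson 95% interval 27.9 to 38.7) and 74.9 at 500 to 1000 bp (69.8 to 80.2), a ratio of 0.441. Replicate 2 had 24 (19.7 to 28.9) and 60.7 (56.1 to 65.5), a ratio of 0.395. The lowest bins flanked the end on both sides, with 15 summits per Mb in the last 100 bp of the gene and 21.0 in the first 100 bp beyond it in replicate 1, and 18.5 and 18.4 in replicate 2. No summit of either list lay exactly at an annotated end, and the median distance was 544 bp in replicate 1 and 570 bp in replicate 2. The 200 and 500 bp limits were chosen after this profile had been seen, so it is given without a test.

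**Figure D1:**
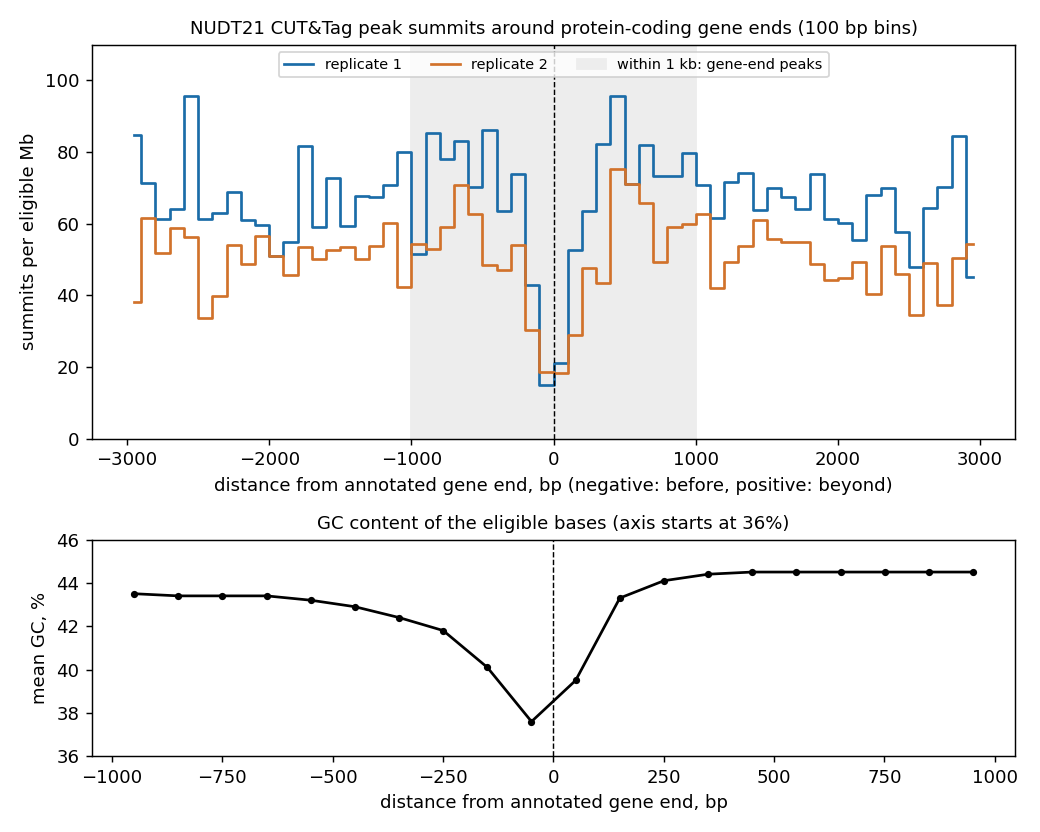
Upper panel: peak summits outside promoters per eligible Mb (y axis) in 100 bp bins of distance from the nearest protein-coding gene end (x axis, bp), for replicate 1 (blue) and replicate 2 (orange), with the 1000 bp window of gene-end peaks shaded. Lower panel: mean GC percent of the eligible bases at the same distances, on an axis that starts at 36%; the summit density falls to between 15 and 21 per Mb in the bins that flank the end, where mean GC is 37.6% and 39.5%.

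Base composition dipped at the same place. Mean GC of the eligible bases was 37.6% in the last 100 bp of the genes and 39.5% in the first 100 bp beyond, against 43.5% at the start and 44.5% at the far side of the window. The share of eligible bases inside any peak outside promoters fell with it, to 4.01% in replicate 1 and 3.21% in replicate 2 in the last 100 bp, from 6.88% and 4.77% at 900 to 999 bp before the end. Positions were therefore also compared at like GC content within 100 bp on either side. Between 50 and 60% GC, replicate 1 had 117 summits per Mb within 200 bp (92.4 to 146) and 181 at 500 to 1000 bp (164 to 199), and replicate 2 had 91.3 (69.6 to 117) and 145 (130 to 161). At 60% GC and over the values were 380 (296 to 481) and 513 (461 to 568) in replicate 1, and 242 (176 to 325) and 402 (357 to 451) in replicate 2. The ratio of near to far was thus between 0.602 and 0.741 in these GC-rich bands, closer to 1 than over all positions. Within these bands the intervals of near and far overlapped only in replicate 1 at 60% and over. Between 40 and 50% GC summits were few, and the intervals overlapped in both replicates. Replicate 1 had 3.31 per Mb near (0.901 to 8.46) and 3.89 far (2.12 to 6.52) in that band. Replicate 2 had 4.13 (1.34 to 9.64) and 6.66 (4.27 to 9.91).

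Sequence under 40% GC carried almost no summit. In 4.19 Mb of it at 500 to 1000 bp there were 0 summits in replicate 1, with an upper bound of the exact Poisson interval of 0.881 per Mb, and 1 in replicate 2. The near zone held 2.50 Mb of such sequence among its 4.55 Mb and no summit in either replicate there.

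**Figure D2:**
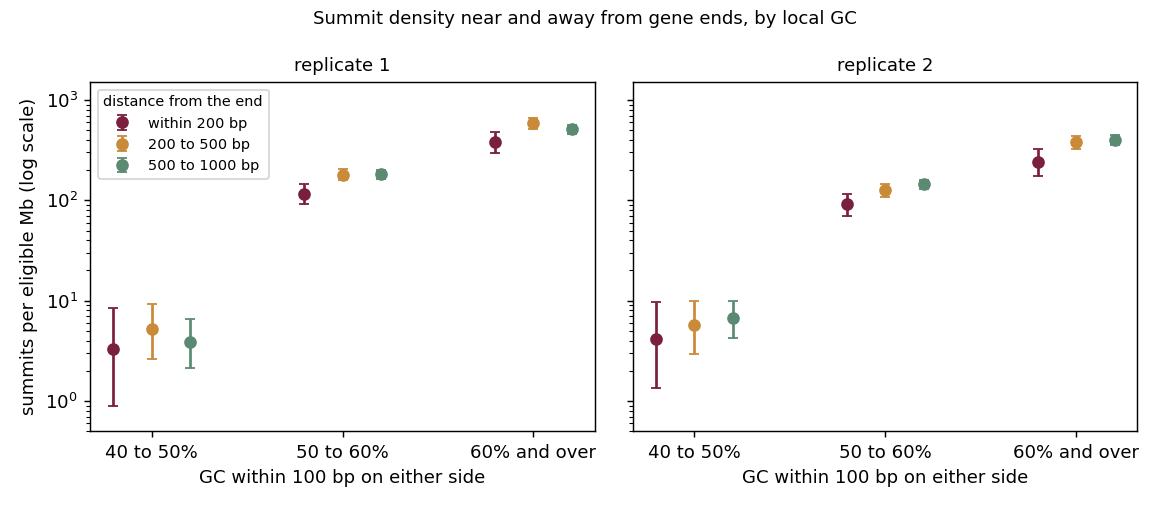
Summits per eligible Mb (y axis, log scale) by the GC content within 100 bp on either side of a position (x axis) in 3 zones of distance from the gene end, for each replicate; bars are exact Poisson 95% intervals. At 50 to 60% GC the zone within 200 bp lies at 117 in replicate 1 and 91.3 in replicate 2, under the zone at 500 to 1000 bp at 181 and 145.

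The lower density near the end was present at ends with and without a poly(A) hexamer. At ends with AATAAA or ATTAAA in the last 50 bases the near to far ratio was 0.409 in replicate 1 and 0.370 in replicate 2, and at ends without it 0.527 and 0.464. It was also present in each class of neighbouring gene, with ratios from 0.355 at convergent ends to 0.643 at overlapped ends, both in replicate 1. The differences between these ratios were not tested.

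Most summits lay in the 3′ UTR of the host gene or in intergenic sequence just past it. In replicate 1, 29.4% of the summits were in the 3′ UTR of the host (27.1 to 31.8), 8.08% in its coding exons and 9.89% in an intron or another exon of it. Beyond the end, 41.1% were in no gene (38.6 to 43.6), 7.74% in another protein-coding gene and 3.77% in a gene of another kind. Replicate 2 had 31.7, 7.82, 8.61, 39.1, 8.97 and 3.82% in the same order. The peak itself, with a median length of 608 bp in replicate 1 and 642 bp in replicate 2, covered the end in 23.8% (21.7 to 26.0) and 25.9% (23.5 to 28.6) of cases. In 80 peaks of replicate 1 and 67 of replicate 2, the summit was within 1000 bp of 2 or more gene ends and was counted at the nearest.

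Gene-end peaks were of moderate strength. The fold is the authors' fold enrichment, the pileup at the summit plus 1 over the background plus 1, where the pileup is the number of fragments times 0.921 in replicate 1 and times 1.00 in replicate 2. MACS writes a scaled pileup when it compares with a control of another depth, so the background of replicate 1 may come from a control library that the sources used here do not name. The same may hold for replicate 2. The fold is given as deposited. The median fold was 3.97 in replicate 1 (quartiles 3.21 and 4.99, range 1.92 to 15.6) and 4.22 in replicate 2 (3.45 and 5.24, range 2.18 to 13.8). The fragments at the summit, solved from the deposited fold and p-value, had a median of 30 in replicate 1 and 19 in replicate 2. The fold exceeded the median of the other peaks outside promoters in 56.0% of gene-end peaks in replicate 1 (odds ratio 1.27, Fisher's exact test, two-sided, adjusted p = 1.26e-05) and in 54.8% in replicate 2 (1.21, adjusted p = 0.00203, both adjusted over 9 tests). With peaks of −log10 q of at least 5 alone, the mean excess over the median was 3.51 percentage points instead of 5.40, and the adjusted p of the weaker replicate was 0.0635. Neighbouring peaks are not independent, so these p-values are too small by an unknown amount, as are those that follow. A higher median fold was not particular to gene-end peaks. The other peaks outside promoters had a median fold of 3.77 in replicate 1 and 4.03 in replicate 2. The medians were 3.88 and 4.08 in 3′ UTR peaks over 1 kb from an end. In intergenic peaks 1 to 5 kb beyond an end they were 3.95 and 4.23. Differences between these medians were not tested.

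Gene-end peaks were found again in the other list more often than other peaks outside promoters, at an overlap of 1 bp. In replicate 1, 56.5% touched a peak of replicate 2, against 49.3% of the others (odds ratio 1.34, 1.20 to 1.48, adjusted p = 2.07e-07 by Fisher's exact test). In replicate 2, 86.1% touched a peak of replicate 1, against 79.8% (1.56, 1.32 to 1.85, adjusted p = 2.92e-07, Fisher's exact test). The result depended on the rule: with a reciprocal overlap of 50% the shares were 37.7 and 34.9% in replicate 1 but 50.4 and 52.9% in replicate 2, and with summits within 200 bp they were 36.2 and 31.9% in replicate 1 and 48.8 and 48.8% in replicate 2. Within quintiles of −log10 p the mean excess was 3.11 percentage points instead of 6.73 and did not pass the threshold (exact conditional test, adjusted p = 0.0700). Gene-end peaks were longer than the others, with medians of 608 against 546 bp in replicate 1 and 642 against 571 bp in replicate 2. Their share was also close to that of 2 other kinds of peak downstream in genes: 57.3 and 86.5% of 3′ UTR peaks over 1000 bp from an end, and 55.8 and 85.2% of intergenic peaks 1000 to 5000 bp beyond one, touched a peak of the other list. These values are given as a description and were not tested.

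The 701 shared regions were chosen because gene-end peaks of both lists merged into them. Their closeness in place follows in part from that choice and is given as a description. The summits were within 200 bp of each other in 494 of them (70.5%), with a median gap of 86.0 bp, and 122 (17.4%) had summits at most 5 bp apart. They lay on the same side of the end in 635 regions (90.6%), beyond it in 335 and before it in 300. Spearman's rho of the fold was 0.664 over the 701 regions. The 2 lists share the antibody and the cell line and may share an unnamed control. The peaks that were not found again were weaker, with a median fold of 3.46 against 4.41 in replicate 1 and 3.62 against 4.32 in replicate 2.

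**Figure D3:**
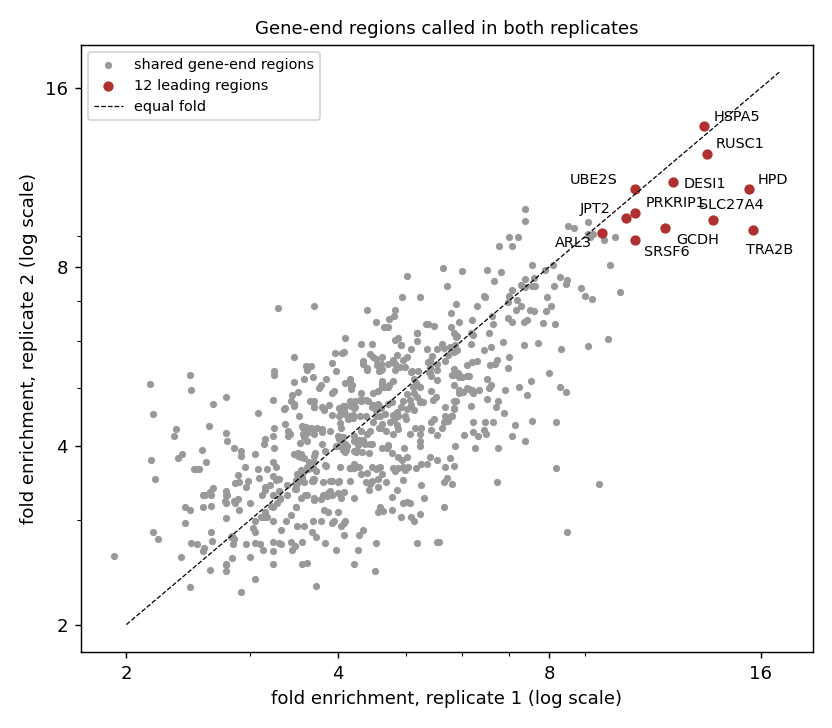
Fold enrichment in replicate 1 (x axis, log scale) and replicate 2 (y axis, log scale) of the 701 gene-end regions found in both (grey), with the 12 leading regions in red and the line of equal fold dashed. The leading regions lie at 9.50 to 15.6 on the x axis and 8.89 to 13.8 on the y axis.

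The 12 leading regions were chosen by their fold rank in both lists, so their folds are a description. The lowest summed rank was shared by HSPA5, the endoplasmic reticulum chaperone BiP, and RUSC1. HSPA5 had a fold of 13.3 in replicate 1, from 100 fragments over a background of 6, and 13.8 in replicate 2, from 59 over 3.34. Its summits lay 426 and 423 bp before the end, in the 3′ UTR, in the region chr9:125234994-125235601. RUSC1, which encodes an adaptor with RUN and SH3 domains, had folds of 13.4 and 12.4, with both summits at the same base 713 bp before the end. The 2 replicates thus placed these peaks within 3 bp of each other.

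HPD, which encodes a dioxygenase of tyrosine breakdown, had 133 fragments in replicate 1, the most among the 12, with a fold of 15.4, and a fold of 10.8 in replicate 2. Its summits were the nearest to an end, at 86 and 73 bp before it, in a stretch of 3′ UTR with 68.2 and 66.7% GC within 100 bp of the summits. TRA2B, a splicing regulator, had the highest fold of replicate 1, 15.6, and 9.21 in replicate 2, 423 and 424 bp beyond the end. DESI1, a deSUMOylating isopeptidase, had folds of 12 and 11.1 at 772 and 921 bp beyond the end, and SLC27A4, a fatty acid transport protein, 13.7 and 9.59 at 663 and 794 bp. JPT2 had 10.3 and 9.66 at 195 and 179 bp beyond the end.

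UBE2S, the ubiquitin-conjugating enzyme that extends chains for the anaphase-promoting complex, had folds of 10.6 and 10.8 at 900 and 703 bp beyond its end, inside RPL28, which overlaps it tail to tail. The peak can therefore not be given to one of these 2 genes. PRKRIP1 had 10.6 and 9.87 in its 3′ UTR, at 562 and 930 bp before the end, in peaks of 4299 and 4339 bp. ARL3, a small GTPase of ciliary trafficking, had 9.50 and 9.13 in its 3′ UTR with both summits at the same base, 673 bp before the end. GCDH, glutaryl-CoA dehydrogenase, had 11.7 and 9.29 in a coding exon, and SRSF6, a splicing factor, 10.6 and 8.89 in an intron or non-coding exon. The ends of both genes are covered by another protein-coding gene, SYCE2 tail to tail at GCDH and ENSG00000288000 at SRSF6. Giving these peaks to GCDH and SRSF6 is therefore not certain.

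Of the 12, 7 lay before and 5 beyond the end in both replicates, 9 had both summits over 200 bp from the end, and all 12 genes also had a promoter peak in both lists. The 4 next regions of each neighbour class by summed rank were at PALM2AKAP2, CYTH1, TINCR and SURF6 (distant), EBI3, SERTAD1, ARRB2 and FCHO1 (tandem), ZBTB7A, TMIGD2, C21orf58 and LRSAM1 (convergent) and HNRNPA3, GSE1, NUP62 and TADA3 (overlapped). Over all 28 named regions the fold was at least 6.79 in replicate 1 and 6.97 in replicate 2, 17 lay beyond and 11 before the end in both, and 25 had both summits over 200 bp from it. At PALM2AKAP2 the 2 summits were again at the same base, 321 bp beyond the end.

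Several ends carried peaks on both sides. Among genes with 4 gene-end peaks over both lists, the highest number, there were 29, of which ABL1, AP1B1, APOL2, ASGR2 and BIRC5 come first in the alphabet. ABL1, a tyrosine kinase gene, had a peak before its end with folds of 6.02 and 4.93, at 644 and 632 bp, and a peak beyond it with folds of 5.06 and 4.18, at 515 and 517 bp. AP1B1 had summits 614 and 609 bp before and 791 and 632 bp beyond its end. BIRC5, which encodes survivin, had replicate 1 summits at 827 and 151 bp before the end but replicate 2 summits 363 bp before and 919 bp beyond it, so only the placing at ABL1 and AP1B1 was alike in the 2 lists among these 3.

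Among the 13366 eligible ends, 1373 (10.3%) had a gene-end peak in replicate 1, 1038 (7.77%) in replicate 2 and 695 (5.20%) in both. Ends with a peak in both were compared with the other 12671. They sat in GC-rich sequence, with a median of 52.9% GC within 500 bp of the end against 40.7%. By quintile of that GC, 0.112, 0.411, 1.27, 6.57 and 17.7% of the ends were called in both lists from the lowest to the highest. The genes were shorter, with a median length of 25.3 against 37.8 kb. The share of ends called in both was highest on the GC-rich chromosomes 22 (16.8%, 13.0 to 21.6) and 19 (13.6%, 11.4 to 16.1). It was lowest on chromosome 18, at 0.485% (0.0857 to 2.70, 1 of 206 ends), and X, at 0.962% (0.441 to 2.08).

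A promoter peak at the same gene had the largest odds ratio of the 5 features tested at gene ends. Of the 695 ends with a gene-end peak in both, 635 (91.4%) belonged to a gene with a promoter peak in both lists, against 49.3% of the other ends (odds ratio 10.9, 8.33 to 14.2, adjusted p = 3.30e-119, Fisher's exact test). Promoter peaks are never gene-end peaks by the rule. Within quintiles of GC the pooled odds ratio was 4.64 (Mantel-Haenszel odds ratio, exact conditional test, adjusted p = 1.28e-39). In the highest quintile 20.3% of ends with a promoter peak were called in both, against 7.12% of those without. In the fourth quintile the shares were 9.73 and 1.63%. Expression of the genes was not measured in these files.

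**Figure D4:**
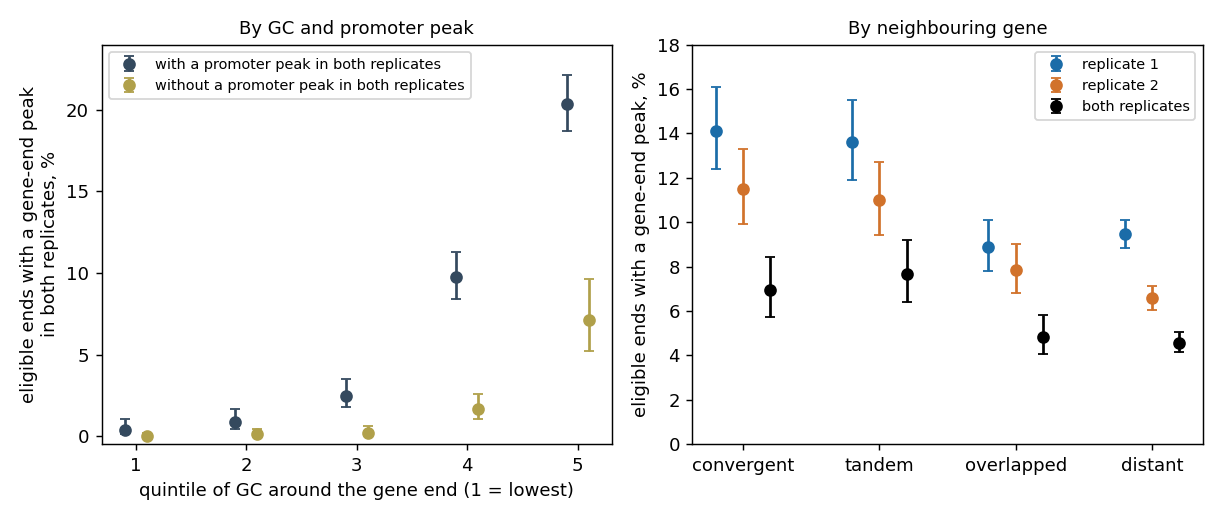
Left: percent of eligible ends with a gene-end peak in both replicates (y axis) by quintile of GC around the end (x axis), for genes with and without a promoter peak in both replicates. Right: percent of eligible ends with a gene-end peak by class of neighbouring gene, for each replicate and for both; bars are 95% Wilson intervals. The share rises to 20.3% in the highest GC quintile with a promoter peak and 7.12% without, and is 6.96% at convergent, 7.69% at tandem, 4.85% at overlapped and 4.58% at distant ends.

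Convergent and tandem ends were called more often than distant ends where GC was not taken into account. The next protein-coding gene beyond the end was classed as convergent where it lay on the other strand with its end within 5000 bp, and as tandem where it lay on the same strand with its start within 10000 bp. An end covered by another protein-coding gene was overlapped, and the rest were distant. A gene-end peak in both lists stood at 96 of 1380 convergent ends (6.96%, 5.73 to 8.42), 108 of 1405 tandem ends (7.69%, 6.41 to 9.20), 113 of 2329 overlapped ends (4.85%, 4.05 to 5.80) and 378 of 8252 distant ends (4.58%, 4.15 to 5.05), beside 5.20% of all. Convergent ends made up 13.8% of the called and 10.1% of the other ends (odds ratio 1.42, 1.14 to 1.78, adjusted p = 0.00292, Fisher's exact test), and tandem ends 15.5 and 10.2% (1.61, 1.30 to 2.00, adjusted p = 4.58e-05). Within quintiles of GC the odds ratio was 0.866 for convergent ends (exact conditional test, adjusted p = 0.328) and 1.14 for tandem ends (adjusted p = 0.328), so neither passed the threshold at like GC.

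Convergent ends under 1000 bp apart were called in both lists at 17 of 407 ends (4.18%), and those 1000 to 5000 bp apart at 79 of 973 (8.12%). The summits at convergent ends lay beyond the end in 45.3% of peaks in replicate 1 (38.7 to 52.0) and 42.9% in replicate 2 (35.7 to 50.5), and those at distant ends in 56.5% (53.1 to 59.8) and 54.7% (50.7 to 58.7). These divisions were not tested. Beyond a convergent end, the nearer end is assigned, so a summit past the middle of the gap counts at the neighbour.

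The RNA signals of NUDT21 and the cleavage machinery were less frequent at ends with a peak. AATAAA or ATTAAA stood in the last 50 bases of 72.1% of the called ends and 75.5% of the others (odds ratio 0.840, 0.708 to 0.996, adjusted p = 0.0469, Fisher's exact test). TGTA stood in the last 100 bases of 46.6 and 54.3% (0.734, 0.630 to 0.856, adjusted p = 1.16e-04, Fisher's exact test). Both directions turned within quintiles of GC, with odds ratios of 1.04 for the hexamer (exact conditional test, adjusted p = 0.651) and 1.21 for TGTA (adjusted p = 0.0494, at the edge of the threshold). The hexamer difference did not pass the threshold in either replicate alone, where the odds ratios were 0.884 and 0.927.

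Of the 13 genes taken up in the study, 10 had an eligible end, and 1 of them, RUNX1, a transcription factor of blood cell development, had a gene-end peak in both replicates, beside 5.20% of all eligible ends. The folds were 4.78 in replicate 1, 339 bp beyond the end, and 3.89 in replicate 2, 156 bp before it, on chromosome 21 at 34787234 to 34788017 and 34787470 to 34788010. MYB, a transcription factor of T-ALL, had a peak in replicate 1 only, with a fold of 4.71 at 398 bp beyond the end. UBE2D3, HMGA1, UBE2J1, MYC, GATA3, CDK1, ETV6 and NUDT21 itself had none, and 9 of the 10 genes had a promoter peak in both lists, beside 51.5% of all eligible ends. The study took HMGA1, MYC and CDK1 from genes with NUDT21 CUT&Tag peaks, so that share follows in part from the choice of genes. HMGB2, UBE2N and PCNA had no eligible end.

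Among 17 eligible ends of genes of 3′ end processing, 1 was called in both lists (5.88%, beside 5.20% of all eligible ends), that of CDK12, a kinase of elongating RNA polymerase II. Both replicates had a peak 926 bp beyond the end, with folds of 2.77 and 3.30, and replicate 2 had another 973 bp before it (fold 3.33). Of 28 eligible ubiquitin-conjugating enzyme ends 3 were called (10.7%, beside the same 5.20%), UBE2S, UBE2Z and UBE2G2. UBE2G2 had folds of 5.93 and 5.30 at 419 and 413 bp beyond its end, and UBE2Z 3.95 and 2.99 at 497 and 892 bp before its end. The replicate 2 peak of UBE2Z rested on 12 fragments. Of 13 eligible known targets of NUDT21 in poly(A) site choice, 1 was called (7.69%, beside 5.20%), HMGN2, a nucleosome-binding protein, with folds of 6.72 and 4.64 and both summits 996 bp beyond the end, just inside the limit of 1000 bp.

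Of 9 eligible housekeeping ends 0 were called in both lists, beside 5.20% of all eligible ends. Of 16 eligible ends of genes restricted to other tissues, 1 was called (6.25%), that of the muscle creatine kinase CKM, with folds of 8.44 and 4.92. Of 25 eligible ends of T-cell genes 4 were called (16%, beside 5.20%), RUNX1 among them. With 9 to 28 eligible ends a list, 0 to 4 calls are few, and no list was tested against the background.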

How the data were processed

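CUT&Tag libraries of 2 J.gamma1 replicates were analysed from the deposited narrowPeak lists (hg38). Per the study's methods and the submitters' processing notes, the authors trimmed reads with fastp, aligned them with Bowtie2 2.2.5 and called peaks per sample with MACS3 3.0.1. The parameters and any control library are not given in the sources used here. The deposited columns used were the fold enrichment, a ratio at the summit, −log10 p, −log10 q (lowest value 2.00) and the summit offset. The score column that the authors deposited was not used.

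Peaks on chromosomes 1 to 22, X and Y were kept (92722 and 66671). Transcript starts, gene ends and exons came from GENCODE 44, and sequences from the hg38 genome. Fragments and background at each summit were solved from fold and −log10 p, at a pileup scale of 0.921 in replicate 1, which may reflect an unnamed control of another depth, and 1.00 in replicate 2 (99.992% and 100.000% of peaks solved within 0.0001). The scale of 1.00 does not exclude a control in replicate 2. Solved backgrounds recurred there at nearly even steps, such as 2.23, 2.78, 3.34 and 3.90. In replicate 1 they recurred at whole numbers such as 4, 5 and 6. A control may thus have been used in both lists, which was not tested. Total reads per library are not in the lists, so depth is known only as fragments under peaks.

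Shares carry 95% Wilson intervals and densities exact Poisson intervals. Fisher's exact tests, two-sided, were adjusted over 9 tests by Benjamini-Hochberg, and odds ratios over strata were pooled by Mantel-Haenszel with an exact conditional test (scipy 1.17.1, statsmodels 0.14.6). Code was tested on simulated data. Named regions were the 12 shared regions with the lowest summed fold ranks, the 4 next of each neighbour class, the 5 genes with the most peaks, and list genes called in both. The members, lists and tests were chosen with earlier results of these data known. T-cell genes are given by their count, and named only where they are also genes of the study. The sequence around 1 of the 4 intergenic summits of the 12 leading regions is not reported here.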

Additional observations from a re-analysis of the deposited data

Results flagged for a closer look

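Peaks on alternate and unplaced sequences were outside the rule for gene-end peaks. They made up 4.57% of the deposited peaks in replicate 1 (4440 peaks) and 2.72% in replicate 2 (1861 peaks). With no control library analysed here, they are given as values only.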

How the results depend on the processing

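No paired analysis was possible because the series has a single group. Of 76 alternative values, 41 met the limits set for no change: the same direction and side of the threshold for a test, a move under 1 SD of the replicates for a percent (0.308 and 0.537 points) and a move within 1.5 times for a count. The gene-end share (3.48%) was 1.49% at 500 bp, 6.85% at 2000 bp, 4.34% with a promoter limit of 1000 bp, 4.03% with protein-coding starts only, 6.55% at ends of protein-coding transcripts, 3.85% at −log10 q of at least 5 and 5.55% in the top 10000 peaks, and 3.26 to 3.70% without one replicate. The share beyond the end (52.2%) was 52.9%, 52.7%, 49.4%, 49.4%, 51.7%, 51.5% and 54.0% in the same order, 51.5% at ends with a whole 2000 bp window, and 51.9 to 52.6% without one replicate. The ends called in both (695) were 236, 1368, 1178, 1233, 1247, 427 and 58 in the same order, 664 where the peaks had to overlap, 470 by reciprocal overlap and 485 by summits within 200 bp, and 1038 to 1373 in one replicate.

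The excess of replicated gene-end peaks (6.73 points) was 0.137 by reciprocal overlap, where replicate 2 turned to -2.48, 2.18 by summits within 200 bp, and 3.11 within quintiles of −log10 p (adjusted p = 0.0700, exact conditional test). It was 5.75 within quintiles of summit GC and 6.26 to 7.20 without one replicate. The fold excess (5.40 points) was 3.51 at −log10 q of at least 5 and 4.81 to 5.99 without one replicate. The hexamer odds ratio (0.840) was 0.901 at 500 bp, 0.898 at −log10 q of at least 5 and 0.884 to 0.927 without one replicate, none of which passed the threshold of 0.05, and 1.04 within GC quintiles. TGTA (0.734) turned to 1.21 and convergent ends (1.42) to 0.866 within GC quintiles, where tandem ends (1.61) had 1.14; convergent ends at 500 bp had 1.42 (adjusted p = 0.0772, Fisher's exact test). TGTA was 0.719 to 0.745, convergent 1.51 to 1.65, tandem 1.43 to 1.54 and the promoter peak 7.05 to 10.3 without one replicate. The strata were added with the data in view. Peaks rest on a median of 30 and 19 fragments, which limits what the lists can show at weak sites.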
